A study of Zea mays with 28 samples.

Results

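The binding maps of 2 chromatin proteins, ZmDDM1B and ZmAGO4, were set against each other in wild-type maize embryos. The members were chosen by antibody and genotype and are the 4 ChIP libraries of WT embryos made with the ZmDDM1B or the ZmAGO4 antibody, of 28 samples in the series. The ZmDDM1B lists held 56570 peaks in replicate 1 and 53298 in replicate 2, and the ZmAGO4 lists held 99625 and 98086. All embryos were of the strain W22, wild type, with no treatment, and were taken 18 days after pollination from plants grown in the field. Chromatin was fixed with formaldehyde and sonicated, and both antibodies were produced by the submitting laboratory. The labels give each library of an antibody a replicate number only. Nothing states that the replicates are from different plants, and their spread may be technical. ZmDDM1B peaks from embryos labelled zmddm1b (1870 and 766 peaks, strain W22 and age as above, allele not described in the labels) and ZmDDM1A peaks from WT embryos (45957 and 45011) served only to mark positions. With 2 libraries against 2, the smallest two-sided p that an exact permutation test can give is 0.333, so no comparison of libraries could pass a threshold of 0.05.

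DDM1 is a SNF2-type remodeller that moves nucleosomes with the energy of ATP. In Arabidopsis it lets methyltransferases reach DNA wrapped in linker-histone heterochromatin and keeps transposons silent. ZmAGO4 belongs to the Argonaute proteins that carry short interfering RNAs in RNA-directed DNA methylation, the route by which small RNAs guide new methylation onto matching sequence. In maize that pathway acts mostly at short transposons close to genes, away from the bulk of deep heterochromatin, which makes the position of each protein along a chromosome and within a shared site a question of interest. No gene annotation of the assembly used for the lists (B73 RefGen_v4) was at hand, so genes and transposons at the sites were not analysed here.

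By the lowest recurring local background, the ZmAGO4 lists were the deeper. That background was recovered from fold and p-value at the summits and divided by the smallest peak width. It gave 13.8 and 12.7 reads per kb for ZmDDM1B, and 31.4 and 28.5 for ZmAGO4. This is a relative depth, and whether it stands for the ChIP library or its input is not known. The fold of a peak, as the authors deposited it, is the enrichment at its summit over the local background, and its median was 4.35 and 4.36 for ZmDDM1B and 6.20 and 6.43 for ZmAGO4. Depth, antibody and peak number differ together between the proteins and cannot be told apart. Lists of equal length (the 53298 peaks of highest fold in each list) are therefore quoted wherever they changed a result by more than 1.5 times.

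Both proteins were concentrated toward the chromosome ends, and ZmDDM1B slightly more so. The 20% of length at either end of the chromosomes, 40% in all, held 54.87% and 54.90% of the ZmDDM1B peaks and 51.74% and 51.64% of the ZmAGO4 peaks. The antibodies did not overlap, with a difference of 3.20 percentage points, which was larger than the spread between replicates (exact permutation test over libraries, two-sided, p = 0.333, the smallest possible). The middle 20% held 12.0% ± 0.0105 (SD, n = 2) of ZmDDM1B peaks against 13.7% ± 0.0432 of ZmAGO4 peaks. Read as a ratio of the lists, there were 49.1 ZmDDM1B peaks per 100 ZmAGO4 peaks in decile 6 of chromosome length in replicate 1 and 47.1 in replicate 2. In decile 10, at the end, there were 62.8 and 61.0.

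**Figure D1:**
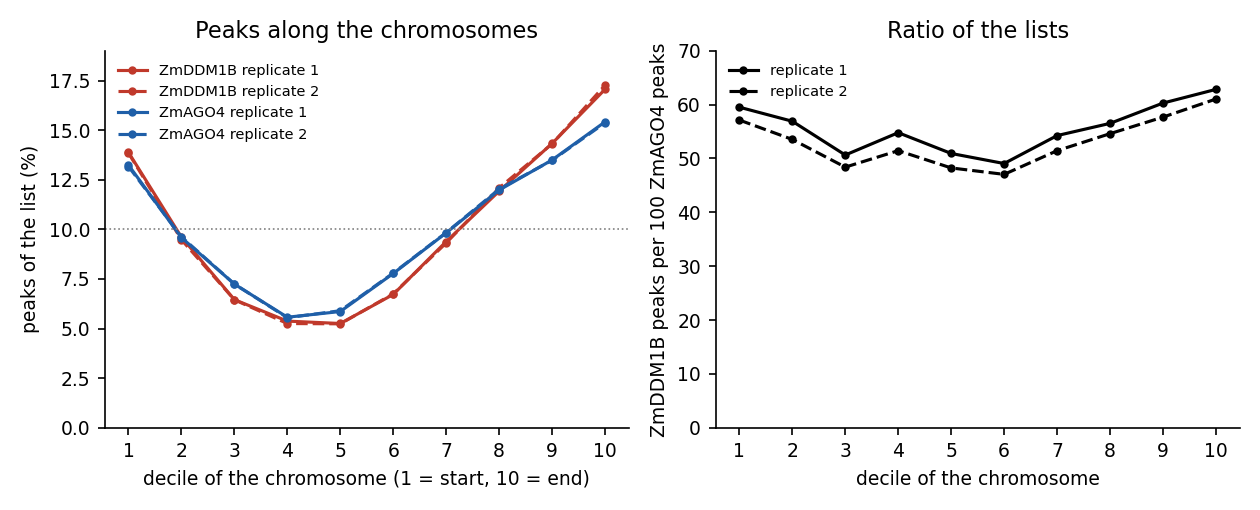
Left, share of each list's peaks (%) in each decile of chromosome length, over 10 chromosomes, for ZmDDM1B (red) and ZmAGO4 (blue), replicate 1 solid and replicate 2 dashed, with an even spread dotted at 10%. Right, ZmDDM1B peaks per 100 ZmAGO4 peaks of the same replicate number, lowest in decile 6 (49.1 and 47.1) and highest in decile 10 (62.8 and 61.0).

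The excess of ZmDDM1B at the ends held on 9 of 10 chromosomes, and chromosome 4 went the other way. On chromosome 10, which had the largest difference, the outer 40% held 57.2% and 57.7% of ZmDDM1B peaks against 50.4% and 50.5% of ZmAGO4 peaks. On chromosome 4 it held 44.6% and 43.8% of ZmDDM1B peaks against 48.2% and 48.4% of ZmAGO4 peaks, 3.60 and 4.66 percentage points fewer. Chromosome 4 also carried the fewest ZmDDM1B peaks for its length, 23.5 and 22.0 per Mb, and the fewest relative to ZmAGO4, with ratios of 0.522 and 0.497. Chromosome 5 had the most ZmDDM1B peaks relative to ZmAGO4, with ratios of 0.619 and 0.589. ZmAGO4 density was more even, from 44.7 and 43.5 peaks per Mb on chromosome 10 to 50.7 and 50.3 on chromosome 1.

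At the scale of 1 Mb the 2 proteins went together. Over 2111 windows the Spearman correlation of peak numbers was 0.884 for the replicates numbered 1 and 0.869 for those numbered 2, given as a description, since windows share the assembly and its mappable length. In each replicate 5 windows held no ZmDDM1B peak, and each window with at least 20 ZmAGO4 peaks held at least 1. In those windows the number of ZmDDM1B peaks per 100 ZmAGO4 peaks had a median of 55.0 and 52.2, with 80% of the windows between 35.3 and 75.5 in replicate 1 and between 32.8 and 73.1 in replicate 2.

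ZmDDM1B peaks were narrow and ZmAGO4 peaks broad. The median ZmDDM1B peak measured 381 bp in replicate 1 and 403 bp in replicate 2, and the median ZmAGO4 peak 833 and 829 bp. The ZmAGO4 median was thus 2.12 times the ZmDDM1B median (log2 ratio 1.08), the antibodies did not overlap, and the exact permutation p was 0.333. The proteins differed most in their widest peaks. Peaks of 1 kb or more made up 4.80% and 5.45% of the ZmDDM1B lists but 41.6% and 41.1% of the ZmAGO4 lists. Peaks of 4 kb or more numbered 1 and 3 for ZmDDM1B against 1813 and 1755 for ZmAGO4. With lists of equal length the log2 ratio of medians was 1.68, as that length keeps only the ZmAGO4 peaks of highest fold. Within a list, stronger peaks were wider, with a Spearman correlation of fold and width over peaks of 0.40 and 0.41 for ZmDDM1B and 0.698 for both ZmAGO4 lists. ZmAGO4 peaks covered 5.23% and 5.10% of chromosome length and ZmDDM1B peaks 1.23% and 1.22%.

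ZmDDM1B peaks lay farther from each other than ZmAGO4 peaks in the lists as deposited. The median gap from a ZmDDM1B peak to the next was 9491 and 10069.5 bp, and that between ZmAGO4 peaks 4458 and 4605 bp, a log2 ratio of ZmAGO4 to ZmDDM1B of -1.11 (exact permutation p = 0.333). With lists of equal length the order turned, and the log2 ratio was 0.46. The cut to 53298 peaks left the ZmDDM1B lists whole or nearly so and dropped the weaker ZmAGO4 peaks. The wider ZmDDM1B spacing thus held for the lists as deposited and not against the ZmAGO4 peaks of highest fold. Spacing among the strongest ZmDDM1B peaks alone was not examined. Called peaks of both proteins were unevenly spaced, with long stretches without a call. The median gap was 0.255 of the mean spacing in both ZmDDM1B lists and 0.211 and 0.214 in the ZmAGO4 lists. Mean spacing counts the whole chromosome length, and the part of unmappable sequence in the long gaps was not tested. No ratio for peaks placed at random was computed. Gaps under 1 kb made up 19.7% and 19.5% of ZmDDM1B gaps and 25.7% and 25.1% of ZmAGO4 gaps. Gaps over 100 kb made up 10.6% and 11.4% of ZmDDM1B gaps and 4.04% and 4.13% of ZmAGO4 gaps.

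**Figure D2:**
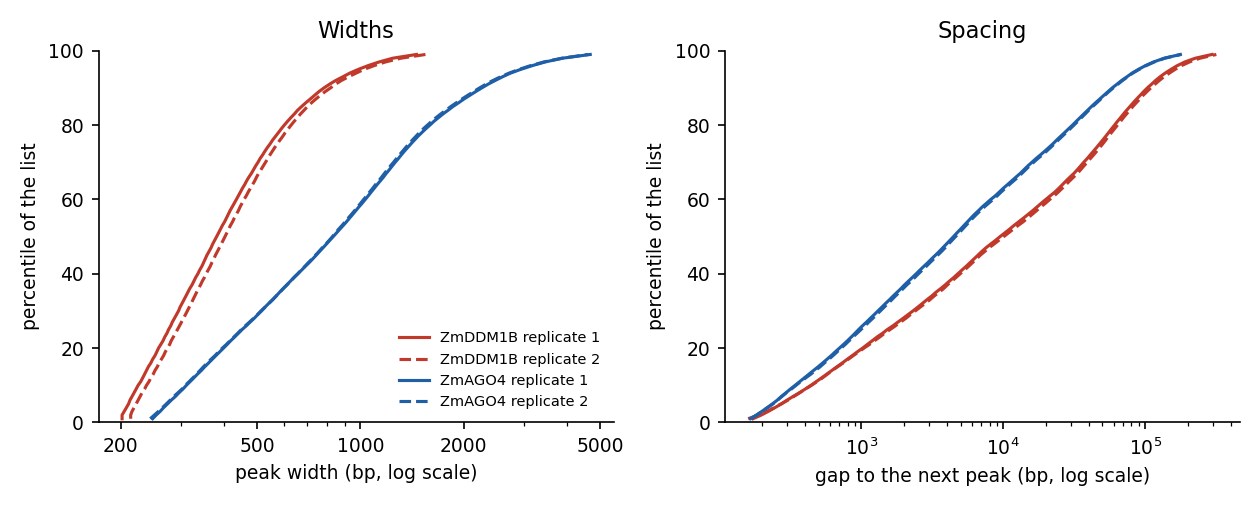
Percentile of each list (vertical axis) against peak width in bp (left) and gap to the next peak in bp (right), both on log axes, for ZmDDM1B (red) and ZmAGO4 (blue), replicate 1 solid and replicate 2 dashed. At the 50th percentile widths were 381 and 403 bp against 833 and 829 bp, and gaps 9491 and 10069.5 bp against 4458 and 4605 bp, with the replicates of an antibody lying close together.

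A region of an antibody was a merged stretch of overlapping peaks with at least 1 peak of each replicate. There were 42450 ZmDDM1B regions and 89782 ZmAGO4 regions. Of the ZmDDM1B regions, 34141 overlapped a ZmAGO4 region by at least 1 bp, which is 80.4% (exact Clopper-Pearson 95% interval 80.0% to 80.8%, counting error only). Of the ZmAGO4 regions, 30291 overlapped a ZmDDM1B region, which is 33.7% (33.4% to 34.0%). Merged together these made 29804 common regions with a median width of 1538 bp. ZmAGO4 regions covered 5.37% of chromosome length and their flanks of 1 kb a further 6.81%.

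Most ZmDDM1B summits, the points of highest signal of its peaks, lay inside a ZmAGO4 region. The centre of a region was the middle 33.3% of its width and the edges the rest. An even spread would thus by itself put more summits toward the edges than in the centre. A mean of 69.2% ± 0.618 (SD, n = 2 libraries) lay inside, 23.7% ± 0.376 in its centre and 45.5% ± 0.242 toward its edges. Outside, 13.1% ± 0.349 lay in the flank within 1 kb, 9.13% ± 0.128 between 1 and 5 kb away and 8.51% ± 0.142 farther than 5 kb. With lists of equal length the share inside was 49.6%. Per length of chromosome the density of ZmDDM1B summits was 336 ± 11.2 per Mb inside ZmAGO4 regions. It was 54.0 ± 2.77 per Mb in the first 200 bp outside, 51.4 ± 4.47 from 201 to 500 bp and 47.4 ± 3.11 from 501 to 1000 bp, and in both libraries it was lower in each bin farther out. Between 1 and 2 kb it was 22.5 ± 1.19, between 2 and 5 kb 10.2 ± 0.608 and beyond 5 kb 3.14 ± 0.185 per Mb, against 26.1 ± 1.10 over all chromosomes.

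Of the summits outside, 42.6% ± 0.276 were within 1 kb of a ZmAGO4 region. That share was 21.2% with lists of equal length, and 24.6% with a flank of 500 bp. Among the summits outside, 25.5% ± 0.786 belonged to ZmDDM1B peaks that overlapped a ZmAGO4 peak called in 1 or both libraries, and 11.2% ± 0.260 lay in a gap of under 2 kb between a pair of ZmAGO4 regions. Among the summits in the flank, 27.8% ± 0.857 came from a ZmDDM1B peak whose edge reached into the ZmAGO4 region.

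ZmDDM1B peaks inside ZmAGO4 regions were wider and ranked higher than those outside. Their median width was 426 bp ± 14.1 inside against 322 bp ± 14.8 outside. The median fold percentile within the ZmDDM1B list was 58.5 ± 0.843 for summits in the centre of a ZmAGO4 region and 56.2 ± 0.198 for those near its edges. It was 32.0 ± 1.25 in the flank, 36.0 ± 0.185 between 1 and 5 kb and 41.0 ± 0.927 beyond 5 kb, so the flank held the weakest class and the far summits were not the weakest. A peak of the other ZmDDM1B replicate overlapped, by at least 1 bp, 86.8% ± 2.46 of the peaks with summits inside. It overlapped 68.8% ± 4.61 of those in the flank and 45.5% ± 2.96 of those beyond 5 kb.

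The far ZmDDM1B summits also stood apart in the other lists. A peak in either zmddm1b library, where the antibody was used on mutant embryos, overlapped 6.92% ± 0.785 of far ZmDDM1B peaks, 2.47% ± 0.154 of all ZmDDM1B peaks and 0.550% ± 0.0672 of those in the flank. A ZmDDM1A region overlapped 71.5% ± 1.44 of ZmDDM1B peaks in the centre class, 72.4% ± 1.46 at the edges, 38.5% ± 2.38 in the flank and 24.3% ± 1.81 of the far class. ZmDDM1A is the second DDM1 homologue in the series, and the labels do not say how far the antibodies tell the homologues apart. The outer 40% of the chromosomes held 46.1% ± 0.644 of the far summits, against 54.9% ± 0.0165 of all ZmDDM1B summits.

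Within single ZmAGO4 peaks, ZmDDM1B summits were in the centre less often than ZmAGO4 summits of the other replicate. The ZmAGO4 summits of one replicate placed in the peaks of the other give the scatter of the same protein measured again. Of these, 61.5% ± 0.542 (SD, n = 2) fell in the middle 33.3% of the peak's width, again called the centre. Of ZmDDM1B summits inside ZmAGO4 peaks, 34.0% ± 0.161 did, close to the 33.3% of an even spread. The difference was -27.5 percentage points, the antibodies did not overlap, and the exact permutation p was 0.333.

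That average hid a change with the width of the ZmAGO4 peak. In ZmAGO4 peaks under 500 bp, 59.5% ± 0.433 of ZmDDM1B summits lay in the centre, against 79.1% ± 0.0565 of the ZmAGO4 summits. In peaks of 500 bp to 1 kb it was 35.3% ± 1.48 against 64.7% ± 0.862. In peaks of 1 to 2 kb it was 21.5% ± 0.556 against 56.4% ± 0.352, the widest distance between the proteins. There the outermost sixths of the peak held 42.6% ± 0.912 of the ZmDDM1B summits against 5.52% ± 0.162 of the ZmAGO4 summits. From the left to the right end of such peaks the sixths held 21.0%, 17.8%, 10.8%, 10.7%, 18.1% and 21.6% of the ZmDDM1B summits, a dip in the middle that was alike from both sides.

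In ZmAGO4 peaks of 2 to 4 kb the 2 proteins had like shares in the centre, 38.7% ± 0.749 for ZmDDM1B and 39.6% ± 0.137 for ZmAGO4. The profiles behind those shares differed. ZmDDM1B summits were most frequent in the central and the outermost sixths (17.2%, 13.2%, 19.6%, 19.1%, 13.6% and 17.4% from left to right), where ZmAGO4 summits were most frequent in sixths 2 and 5 (23.5% and 23.0%) and scarce in the outermost (6.78% and 7.05%). In ZmAGO4 peaks of 4 kb and over the centre held 30.3% ± 0.0922 of ZmDDM1B and 34.7% ± 0.532 of ZmAGO4 summits. In each width class the 2 antibodies did not overlap in this share, each with an exact permutation p of 0.333.

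**Figure D3:**
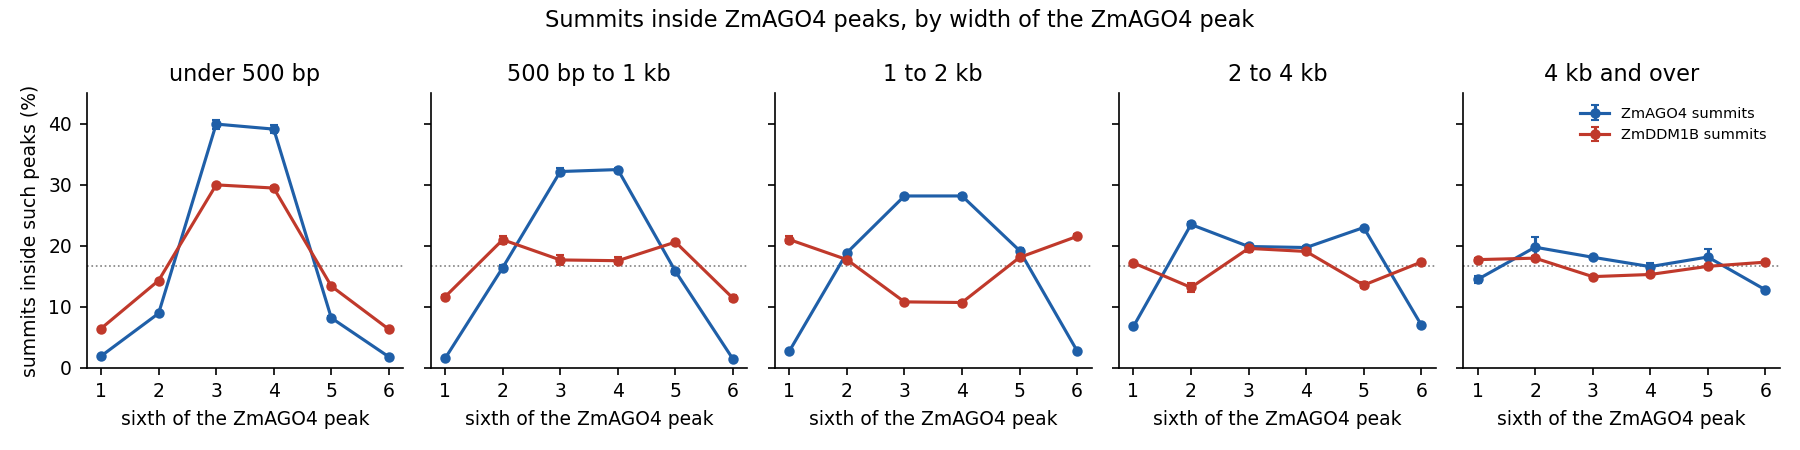
Share of summits (%) in each sixth of the ZmAGO4 peak that holds them, from its left to its right end, in 5 panels by ZmAGO4 peak width, for ZmDDM1B summits (red) and ZmAGO4 summits of the other replicate (blue), as means of 2 libraries with SD bars and an even spread dotted. ZmDDM1B summits were central in peaks under 500 bp (59.5% in the centre) and sparse in the middle of peaks of 1 to 2 kb (21.5%).

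Distance from the ZmAGO4 summit, in base pairs, was a second measure of position and differed in part from the sixths of the peak. In ZmAGO4 peaks under 500 bp, ZmDDM1B summits were densest within 99 bp of the ZmAGO4 summit, at 0.690 ± 0.0401 per kb of peak. In peaks of 1 to 2 kb the density was 0.309 ± 0.00675 per kb within 99 bp and 0.424 ± 0.0280 per kb at 200 to 299 bp. Farther out it fell to 0.165 ± 0.0242 per kb at 1400 to 1499 bp, although the outermost sixths of such peaks held the most summits. Few peaks reach that bin: it held 13.5 and 11 summits, as means over the ZmAGO4 lists. Its length was 74.2 kb of peak, against 5603 kb within 99 bp. In peaks of 2 to 4 kb the density was 0.291 ± 0.0356 per kb within 99 bp and 0.548 ± 0.0383 per kb at 200 to 299 bp. In peaks of 4 kb and over it was 0.296 ± 0.0398 and 0.776 ± 0.0213 per kb. In the 3 wide classes the ZmDDM1B density was therefore highest at 200 to 299 bp to the side of the ZmAGO4 summit, and lower on top of it by more than the spread between libraries. ZmAGO4 summits of the other replicate were densest within 99 bp in every width class, from 3.48 to 4.34 per kb.

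**Figure D4:**
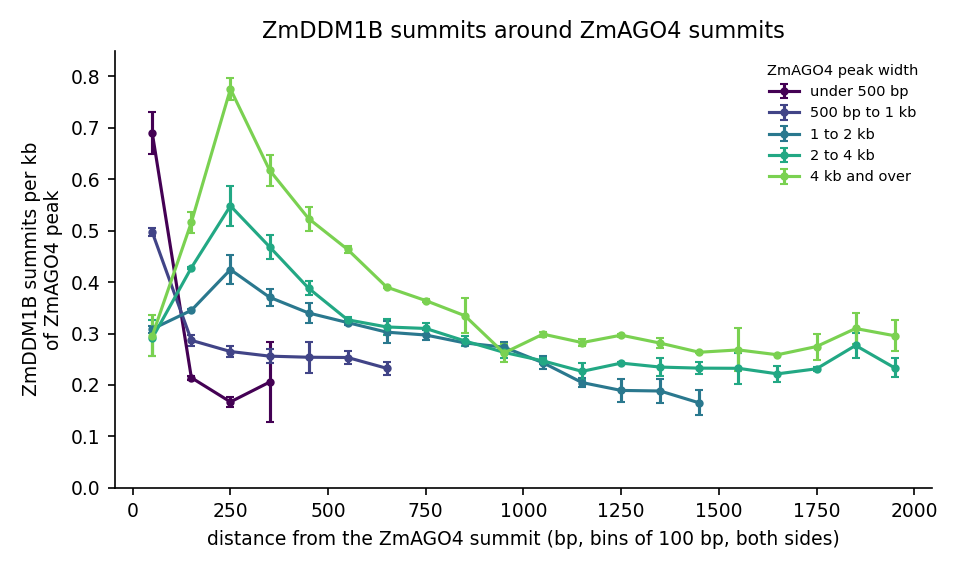
ZmDDM1B summits per kb of ZmAGO4 peak (vertical axis) against distance from the ZmAGO4 summit in bp, in bins of 100 bp taken on both sides together, one line per ZmAGO4 width class, as means of 2 libraries with SD bars. Peaks under 1000 bp had their highest density in the first bin, and peaks of 1000 bp and over at 200 to 299 bp.

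Where 1 ZmAGO4 peak held exactly 2 ZmDDM1B summits, these usually stood on both sides of its midpoint and less often on both sides of its summit. No share for unrelated pairs was computed. Separately called peaks have to stand apart, which alone makes opposite sides of a midpoint more likely, so the shares are a description only. In ZmAGO4 peaks of 1 to 2 kb, 86.4% ± 0.744 of such pairs straddled the peak's midpoint and 67.9% ± 0.968 its summit, at a median of 779 bp ± 0.707 from each other. In peaks of 2 to 4 kb the pairs were 1179 bp ± 24.0 apart, and 74.5% ± 0.361 straddled the midpoint and 55.9% ± 1.73 the summit. In peaks of 4 kb and over they were 1992 bp ± 18.4 apart, with 69.2% ± 0.385 around the midpoint and 55.1% ± 1.21 around the summit. Peaks with a single ZmDDM1B summit had it in the centre in 21.1% ± 0.717 of cases at 1 to 2 kb and in 43.5% ± 1.05 at 2 to 4 kb. The sparse middle of the 1 to 2 kb class was thus present without pairs.

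Wide ZmAGO4 peaks held ZmDDM1B more often, though not more of it per length. The share of ZmAGO4 peaks with at least 1 ZmDDM1B summit was 16.7% ± 0.876 under 500 bp, 23.8% ± 0.834 at 500 bp to 1 kb, 43.1% ± 1.19 at 1 to 2 kb, 65.1% ± 1.23 at 2 to 4 kb and 88.1% ± 1.01 at 4 kb and over. Per kb of peak, the narrowest class held 0.473 ± 0.0248 ZmDDM1B summits and the next classes 0.331 ± 0.0117, 0.336 ± 0.0112, 0.327 ± 0.00825 and 0.358 ± 0.00681. The share of peaks with ZmDDM1B thus went up more than 5 times over the classes while the density stayed within 0.327 to 0.473 per kb. Among ZmAGO4 peaks of 4 kb and over, 31.7% ± 0.95 held 2 ZmDDM1B summits and 26.0% ± 1.31 held 3 or more, with at most 7 in 1 peak.

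The same held for regions called in both replicates. ZmDDM1B was present at 16.2% of ZmAGO4 regions under 500 bp (Clopper-Pearson 95% interval 15.6% to 16.7%) and at 83.4% of those of 4 kb and over (81.8% to 85.0%). The median ZmAGO4 peak was 1319 bp wide at regions with ZmDDM1B and 762 bp at those without in replicate 1, and 1291 and 744 bp in replicate 2. The local background of the ZmAGO4 peaks differed along with it, with medians of 2.78 and 2.83 times the genome-wide floor at regions with ZmDDM1B and 1.90 and 1.88 times at those without, and its part in the result was not tested. Of the 89782 ZmAGO4 regions, 59491 held no ZmDDM1B region, 26718 held 1, 2958 held 2 and 6 held 6.

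ZmAGO4 strength related to the presence of ZmDDM1B in opposite ways in narrow and wide regions. In ZmAGO4 regions under 500 bp the median fold percentile was 17.6 and 16.5 where ZmDDM1B was present and 30.1 and 29.5 where it was not. In regions of 1 to 2 kb it was 72.3 and 72.1 with ZmDDM1B and 63.6 and 62.9 without. Over the whole ZmAGO4 list, the share of peaks overlapping a ZmDDM1B region was 32.9% ± 0.643 in the weakest decile by fold, 18.8% ± 0.229 in decile 4 and 55.5% ± 0.416 in the strongest. The ZmDDM1B list had no such minimum: the share of its peaks overlapping a ZmAGO4 region went from 57.2% ± 2.83 in the weakest decile to 91.0% ± 0.691 in the strongest. The local background of ZmAGO4 peaks was also lowest in decile 4, at 1.81 ± 0.0531 times the genome-wide floor. It was 2.62 ± 0.0306 times in the weakest decile and 2.24 ± 0.0448 times in the strongest, and its part in these shares was not tested.

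Viewed from the other side, ZmAGO4 summits in ZmDDM1B peaks were in the centre less often than ZmDDM1B summits of the other replicate. Between 17.0% and 17.9% of ZmAGO4 summits fell inside a ZmDDM1B peak, over the 4 pairs of libraries. Of these, 34.1% to 36.5% lay in its centre, where ZmDDM1B summits of the other replicate did so in 63.2% and 64.4% of cases.

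At common regions the rank of one protein said next to nothing of the rank of the other. Each library's highest fold in a common region was turned into a percentile of its own list. The Spearman correlation between a ZmDDM1B and a ZmAGO4 library over the 29804 common regions ran from -0.0211 to -0.00777 over the 4 pairs of libraries, with a mean of -0.0143. Between replicates it was 0.532 for ZmDDM1B and 0.906 for ZmAGO4, so the ranks of ZmDDM1B themselves repeated only in part. These correlations describe regions that share libraries and carry no p. The mean was 0.032 with lists of equal length, 0.0639 with the deposited −log10 q in place of fold, and -0.0854 when single peaks were compared, the last being an alternative chosen after seeing the data.

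The strongest sites were no more shared than ranks without relation would give. Of the strongest 10% of common regions by ZmDDM1B, 8.84% ± 0.504 (SD over 4 pairs of libraries, which are not independent) were in the strongest 10% by ZmAGO4, where unrelated ranks would give 10%. The replicates of ZmDDM1B shared 33.4% of their strongest decile and those of ZmAGO4 50.8%. Sorted into deciles by ZmAGO4 percentile, common regions had a median ZmDDM1B percentile between 60.5 ± 1.39 in decile 5 and 68.1 ± 1.21 in decile 2, with 62.9 ± 1.60 in the strongest decile. Over the same deciles the share of common regions that held 2 or more ZmDDM1B regions went from 3.03% ± 0.167 in the weakest to 24.7% ± 0.469 in the strongest. The median width of the common regions went from 784 bp ± 1.41 to 2383 bp ± 15.9 along with it, and a wider region takes its percentile from the highest of more peaks; the part of width in these values was not tested.

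**Figure D5:**
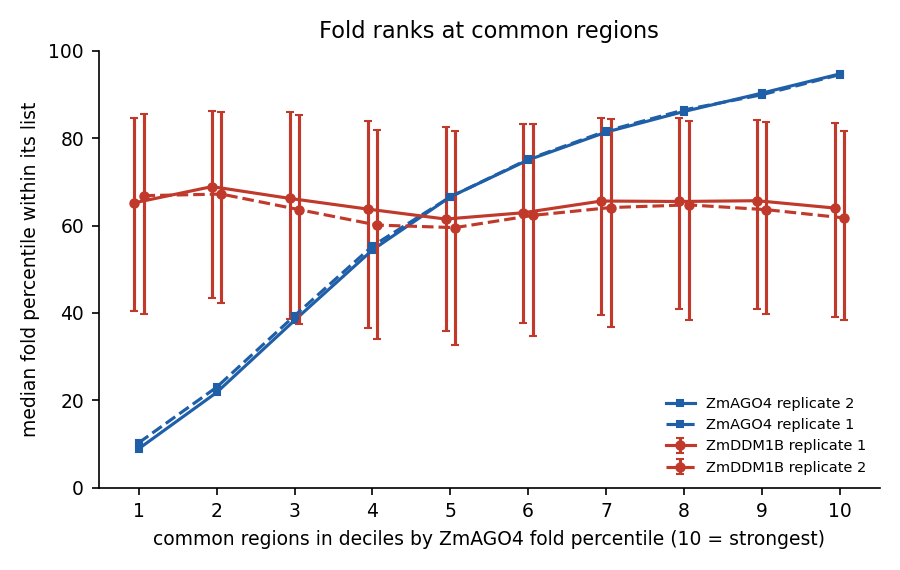
Median fold percentile within its own list (vertical axis) for ZmDDM1B (red, bars from the 25th to the 75th percentile of the regions) at 29804 common regions sorted into deciles by ZmAGO4 percentile of the same replicate number. Blue lines give the ZmAGO4 percentile in the replicate not used for sorting, which runs from 8.97 and 10.3 to 94.7 and 94.5, while the ZmDDM1B medians stay between 59.5 and 68.9.

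The width of the common region moved with ZmAGO4 rank and hardly with ZmDDM1B rank, but that width came mostly from ZmAGO4. The median was 1538 bp for common regions, 1397 bp for the ZmAGO4 regions in them and 525 bp for the ZmDDM1B regions. Within each list fold also rose with a peak's own width, for ZmDDM1B (0.40 and 0.41) as for ZmAGO4 (0.698 in both lists). The part of how common regions were made in this contrast was not tested. The correlation of percentile with the width of the common region was 0.610 and 0.621 for ZmAGO4 and 0.0519 and 0.0517 for ZmDDM1B. Split by the width of the common region, the correlation between the proteins was 0.160 ± 0.0306 (SD over 4 pairs of libraries) under 500 bp, and -0.0428 ± 0.0145, -0.0537 ± 0.00612, -0.0335 ± 0.00987 and -0.00771 ± 0.00664 in the next wider classes. The local backgrounds under the 2 proteins' peaks were related, with a Spearman correlation over common regions of 0.397 and 0.386, and the part of this in the fold ranks was not tested.

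Single regions show the range behind these averages, with positions on B73 RefGen_v4 counted from 1 and regions chosen by percentile or width. The common region with the highest lowest percentile over the 4 libraries was on chromosome 6 from 134166186 to 134169135 (2950 bp), with ZmDDM1B folds of 10.6 and 11.02 and ZmAGO4 folds of 19.1 and 22.4. Each of these folds was above the 98th percentile of its list. The next 4 by this rule were on chromosome 3 from 15993442 to 15996646, on chromosome 3 from 8664482 to 8669357, on chromosome 1 from 57495744 to 57498270 and on chromosome 3 from 1857641 to 1859589. The first of these 4 also had a peak in zmddm1b embryos, and all 5 overlapped a ZmDDM1A region. Such an overlap was common, at 71.5% of ZmDDM1B peaks in the centre class and 72.4% at the edges. Those on chromosome 3 from 15993442 and from 8664482 each held 3 ZmDDM1B regions under 1 ZmAGO4 peak in each replicate.

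The widest contrast toward ZmDDM1B was on chromosome 1 from 174572656 to 174573778. ZmDDM1B folds there were 12.4 and 11.4, at percentiles 99.6 and 99.1, and ZmAGO4 folds 2.08 and 1.88, at percentiles 2.04 and 0.578. The local background of the ZmAGO4 peaks there was 3.67 and 3.69 times the genome-wide floor, against medians of 2.15 and 2.12 over the ZmAGO4 lists. Of the 5 regions most tilted toward ZmDDM1B, those on chromosome 5 from 28546827 to 28547737 and from 8865563 to 8866135 also had a peak in zmddm1b embryos. All 5 overlapped a ZmDDM1A region. Of the 5 most tilted toward ZmAGO4, none had a zmddm1b peak, and only those on chromosomes 3 and 8 overlapped a ZmDDM1A region. Over all ZmDDM1B peaks, 2.47% overlapped a zmddm1b peak and 60.5% a ZmDDM1A region. Those shares are for single peaks, and shares for the wider common regions are not given here. The widest contrast toward ZmAGO4 was on chromosome 3 from 193947643 to 193948151, a region of 509 bp. ZmAGO4 folds there were 28.1 and 27.6, both above the 99.9th percentile, and ZmDDM1B folds 2.47 and 2.60, at percentiles 4.10 and 5.60. The ZmAGO4 background there was 1.00 and 1.00 times the floor. Over the 5 regions most tilted each way, it ran from 3.57 to 6.33 toward ZmDDM1B and from 1.00 to 2.91 toward ZmAGO4. Fold is a ratio to this background, and its part in these contrasts was not tested.

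ZmDDM1B regions over 5 kb from any ZmAGO4 peak numbered 1407, or 3.31% of its regions. A zmddm1b peak overlapped 11.2% of them, and a ZmDDM1A region 38.5%. The strongest lay on chromosome 3 from 40837351 to 40837678, 28.4 kb from the nearest ZmAGO4 peak, with ZmDDM1B folds of 9.93 and 14.9, and it too was called in zmddm1b embryos. The second, on chromosome 7 from 56610927 to 56611190, was 50.9 kb from ZmAGO4, had folds of 8.98 and 12.6 and was not called in zmddm1b embryos. Of the 5 strongest far regions, 3 had a zmddm1b peak and none overlapped a ZmDDM1A region.

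The widest ZmAGO4 region was on chromosome 3 from 6374732 to 6392051 and measured 17320 bp. It held 3 ZmDDM1B regions, 3 ZmDDM1B summits in replicate 1 and 5 in replicate 2, with the highest ZmDDM1B folds at percentiles 97.5 and 99.9. A zmddm1b peak overlapped it as well. The widest ZmAGO4 region without a ZmDDM1B region was on chromosome 1 from 257312886 to 257321884. It measured 8999 bp, had ZmAGO4 folds of 20.2 and 15.3 and no ZmDDM1B peak in either library, yet overlapped a ZmDDM1A region. The most ZmDDM1B regions within 1 ZmAGO4 region was 6, and of the 6 regions that held so many the first by position was on chromosome 1 from 33990536 to 34002366 (11831 bp), with 6 ZmDDM1B peaks in each replicate under 1 ZmAGO4 peak.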

How the data were processed

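Per the submitters' processing notes, MACS2 2.1.2, Bowtie2, Trim Galore and Picard are among the tools named and the build was B73 RefGen_v4, so W22 reads were placed on the assembly of another line. Their roles, order and settings were not given in the sources used here. The authors deposited 1 peak list per library with the fold, a ratio, and the p-value and q-value as −log10. The smallest −log10 q was 2.00 to 2.01. Pileup and background at each summit were recovered from fold and p-value (100% to 99.998% of pileups whole within 0.001), and the lowest recurring background over the smallest peak width gave reads per kb, a relative depth. One ZmAGO4 peak had a fold below 1.

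Regions, summit positions, widths, gaps and fold percentiles were computed with Python 3.11.15, numpy 2.4.6, pandas 2.3.3 and scipy 1.17.1, and the functions were tested on simulated data. The largest peak end in the lists served as chromosome length. Libraries were compared by two-sided exact permutation of 2 against 2. Neighbouring regions are not independent, and intervals cover counting error only. The ZmAGO4 profile by summit distance covers up to 2000 bp. Named regions were the 5 common regions with the highest smallest percentile, the 5 with the largest contrast each way, the 5 strongest far ZmDDM1B regions, the 3 widest ZmAGO4 regions with and without ZmDDM1B and the 3 with the most ZmDDM1B regions (ties by position), of which a part is printed. Members, classes and rules were chosen with earlier results of these data known.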

Additional observations from a re-analysis of the deposited data

How the results depend on the processing

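Over 9 results and 89 alternatives, 3 values turned, 30 of the values without a test moved by more than the spread between libraries, and the other 56 kept their direction or, without a test, stayed within that spread. Among those that kept their direction, the log2 width ratio of peaks was 1.68 with lists of equal length. With lists of equal length the log2 spacing ratio turned to 0.46 and the mean rank correlation to 0.032, the share of ZmDDM1B summits inside was 49.6%, the share of outside summits in the flank 21.2% and the log2 width ratio of ZmAGO4 regions with to without ZmDDM1B 0.60; such lists drop the weaker ZmAGO4 peaks by construction. Ranking by −log10 q turned the rank correlation to 0.064, and the cause was not tested. With −log10 q of at least 5, the inside share was 71.0%, the flank share 41.5% and the log2 width ratio of regions 0.76. With the union of replicates these were 72.9%, 47.9% and 0.92, and the rank correlation was -0.00096. With 50% of ZmDDM1B covered, the inside share was 68.3%, the rank correlation -0.030 and the log2 width ratio of regions 0.83. Without ZmDDM1B peaks called in zmddm1b, the flank share was 43.6% and the log2 width ratio of regions 0.78. A flank of 500 bp gave 24.6%. The strongest 20% in place of 10% gave a shared part of 18.6%, where unrelated ranks would give 20%. Both settings change the quantity measured, though they are counted among the values that moved. Single peaks, added after seeing the data, gave a rank correlation of -0.085.

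The replicate numbers were only shared: same-numbered libraries differed from the others by 0.054 percentage points in the inside share and 0.00017 in the rank correlation. A replicate block (same-numbered libraries only; the smallest sign-flip p is 0.5) gave a flank share of 48.6% and a log2 width ratio of regions of 0.91 and left the log2 width ratio of peaks at 1.08, the difference in outer share at 3.20 percentage points, the log2 spacing ratio at -1.11 and the difference in centre share at -27.4 percentage points. Leaving out each library in turn gave ranges of 1.04 to 1.13 for the log2 width ratio of peaks, 3.15 to 3.25 for the difference in outer share, -1.15 to -1.07 for the log2 spacing ratio and -28.3 to -26.7 for the difference in centre share. It gave 67.6% to 69.9% for the inside share, 42.4% to 48.9% for the flank share, -0.016 to -0.0020 for the rank correlation, 8.45% to 9.26% for the shared strongest 10% and 0.82 to 0.88 for the log2 width ratio of regions. By the lowest recurring background the ZmDDM1B lists were the shallower, and the effect of depth on the calls was not tested. Sites of ZmAGO4 without ZmDDM1B are sites without a ZmDDM1B call at this depth.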

Other observations

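ZmDDM1A summits in WT embryos, which no comparison of the report used, also varied in position with the width of ZmAGO4 peaks. They lay in the middle 33.3% of the ZmAGO4 peak in 65.3% ± 0.430 (SD, n = 2) of cases under 500 bp, in 39.2% ± 0.833 at 500 bp to 1 kb, in 20.9% ± 0.461 at 1 to 2 kb, in 37.2% ± 0.330 at 2 to 4 kb and in 30.2% ± 0.299 at 4 kb and over. By these means the share at 500 bp to 1 kb was above that at 2 to 4 kb, where ZmDDM1B had the opposite order (35.3% and 38.7%). The contrast did not hold in every pair of libraries. ZmDDM1A replicate 2 in peaks of ZmAGO4 replicate 2 had 36.7% and 36.9%, the order of ZmDDM1B. ZmDDM1B replicate 2 in peaks of ZmAGO4 replicate 1 was nearly level, at 37.5% and 37.9%. In ZmAGO4 peaks of 4 kb and over their density was 0.255 ± 0.0280 per kb within 99 bp of the ZmAGO4 summit and 0.632 ± 0.0188 per kb at 200 to 299 bp, its highest bin. In peaks of 2 to 4 kb the highest bin was also 200 to 299 bp (0.472 ± 0.00412 per kb), whereas in peaks of 1 to 2 kb it was 100 to 199 bp (0.375 ± 0.0120 per kb), within the spread between libraries of the value at 200 to 299 bp (0.367 ± 0.00595 per kb). The difference between the 2 DDM1 homologues was not tested.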
